A study of Mus musculus with 30 samples.

Results

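The 26 genes described here are the enzymes that build cholesterol and the regulators of the sterol regulatory element binding proteins (SREBPs), in the prefrontal cortex of 40-day-old mice. They were taken by name from a list of 20 sterol and isoprenoid enzymes and 6 SREBP factors and regulators, and all 26 were among the 18240 genes of the table and among the 16824 with a mean normalized count of at least 10. Bulk RNA was sequenced from 30 libraries of C57BL/6J mice in 8 groups. Wild-type (WT) mice on vehicle gave 4 female and 4 male libraries. Mice heterozygous for Adnp (HT), a chromatin-associated homeobox gene, gave 4 female and 3 male libraries on vehicle, 4 and 4 on fluoxetine, a serotonin reuptake inhibitor, and 3 and 4 on lithium. All drug-treated libraries are HT, so no drug was compared within the wild type. The sources used here give neither the lost part of Adnp nor the drug doses or the length of treatment.

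Cholesterol is made from acetyl-CoA through mevalonate, the isoprenoid diphosphates and squalene, and the brain makes its own because lipoproteins do not cross the blood-brain barrier; oligodendrocytes and astrocytes are its main producers. SREBP2, from Srebf2, drives most of these enzymes. The protein SCAP carries SREBPs out of the endoplasmic reticulum when sterol is low, and INSIG proteins hold SCAP back when sterol is high, so the enzymes are usually described as a co-regulated set.

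RefSeq start sites of GRCm38.p6 were available for 22 of the 26 genes, in 30 windows; Sqle, Fdps, Fdft1 and Stard4 have no entry in the table used. The 250 bases before the start are printed for 5 genes: Hmgcs1, Mvd and Sc5d, whose levels rose and fell together over the libraries, and Insig2 and Srebf1, which ran against them. For Srebf1 this rested on 2 libraries. Its median correlation with the other genes of the 26 was -0.38, and -0.03 without HT vehicle female 1 and HT lithium male 4. For Insig2 it was -0.37, and -0.21 without them. Each window is written 5′ to 3′ on the strand of the gene. Capitals mark CCAAT, or ATTGG where it lies on the other strand, and in Hmgcs1 also a match to TCACNCCAC, a form of the sterol regulatory element.
Hmgcs1, chr13:119690101-119690350, plus strand: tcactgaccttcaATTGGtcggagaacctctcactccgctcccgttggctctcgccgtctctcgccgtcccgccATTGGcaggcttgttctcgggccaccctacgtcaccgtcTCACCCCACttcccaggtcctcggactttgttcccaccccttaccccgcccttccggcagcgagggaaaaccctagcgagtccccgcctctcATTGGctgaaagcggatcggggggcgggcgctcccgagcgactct
Mvd, chr8:122443423-122443672, minus strand: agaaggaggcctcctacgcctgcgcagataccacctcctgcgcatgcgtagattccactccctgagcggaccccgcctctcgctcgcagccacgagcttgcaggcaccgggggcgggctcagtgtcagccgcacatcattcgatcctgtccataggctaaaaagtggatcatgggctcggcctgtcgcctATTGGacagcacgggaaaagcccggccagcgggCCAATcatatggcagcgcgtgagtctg
Sc5d, chr9:42264301-42264550, minus strand: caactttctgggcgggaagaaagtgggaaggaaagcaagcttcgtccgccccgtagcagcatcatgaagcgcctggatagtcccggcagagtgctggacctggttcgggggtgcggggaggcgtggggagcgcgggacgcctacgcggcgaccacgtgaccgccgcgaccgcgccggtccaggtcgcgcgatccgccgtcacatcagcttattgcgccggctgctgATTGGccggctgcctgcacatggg
Insig2, chr1:121332590-121332839, minus strand: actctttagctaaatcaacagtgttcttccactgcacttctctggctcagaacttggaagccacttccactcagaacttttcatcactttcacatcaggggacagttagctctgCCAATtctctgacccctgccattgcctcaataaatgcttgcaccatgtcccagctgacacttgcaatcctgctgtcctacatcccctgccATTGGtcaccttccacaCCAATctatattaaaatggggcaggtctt
Srebf1, chr11:60222582-60222831, minus strand: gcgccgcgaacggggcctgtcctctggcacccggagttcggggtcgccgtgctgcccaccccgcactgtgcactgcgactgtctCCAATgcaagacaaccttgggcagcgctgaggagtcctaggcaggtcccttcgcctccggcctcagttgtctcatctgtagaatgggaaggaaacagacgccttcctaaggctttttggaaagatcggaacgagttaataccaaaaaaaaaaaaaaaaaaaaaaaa

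TCACNCCAC, searched on both strands, matched 1 of the 22 genes: Hmgcs1, as TCACCCCAC at 137 to 129 bases before the start. It matched 1.21% of the 12163 tested genes with a window. CCAAT was found in 20 of the 22 genes (90.9%), and in 40.1% of those tested genes. GGGCGG, the GC box, was also found in 20 of 22 (90.9%), against 61.2%. CCAAT or its complement stands in all 5 printed windows. Insig2 and Srebf1 have 3 windows each in the table, of which 1 is printed: CCAAT was in 1 of 3 for Insig2 and 2 of 3 for Srebf1.

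The 30 libraries held 23771758 to 34307061 reads. The libraries labelled HT had more Adnp than the wild type, not less: Adnp lay between 1886 and 2491 normalized counts in 22 HT libraries (median 2228) and between 1703 and 2228 in 8 WT libraries (median 1857), a log2 difference of 0.26 between the vehicle groups (SE 0.05, limma adjusted p = 0.00996). Groups are therefore named as the labels name them, and directions below follow those labels; since the lost part of Adnp is unknown, this level is no check of them. The labelled cortex showed its defining neuron markers: Slc17a7 and Tbr1 had medians of 45584 and 4130.3 normalized counts, and none of 8 cortical excitatory neuron markers was at 0 in any library. HT lithium male 4 and HT vehicle female 1 stood apart: their summed counts of 8 olfactory bulb and neuroblast markers were 18824 and 17569, against a median of 4467 over 30 libraries. The summed counts of 8 striatal neuron markers also varied widely, from 4596 to 36949 with a median of 5359, and were 4596 and 5115 in those 2 libraries. The labels number the replicates without saying that each is its own animal; p-values here therefore reflect only library-to-library spread. Every gene level here is from whole tissue, in which fewer cells of a type and less RNA per cell cannot be told apart.

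Levels are compared between genes as mean normalized counts per kilobase of exon over 30 libraries. The length merges every annotated exon of a gene, not those of the transcripts expressed here. The order between genes depends on it: the length is 10.8 kb for Lss and 2.85 kb for Nsdhl. In the mevalonate and isoprenoid steps, Hmgcs1, which makes HMG-CoA, was the highest of all 26 at 1738 per kb. Pmvk and Mvk, the mevalonate kinases, had 467 and 166, Acat2 463, Idi1 391, Ggps1 275, Mvd, the decarboxylase, 274 and Fdps 265. From squalene on, Fdft1, squalene synthase, had 549 per kb, Sc5d, a sterol desaturase, 474, Cyp51, the lanosterol demethylase, 405, Sqle 299 and Msmo1 278. The other enzymes after squalene were lower, wherever they act: Nsdhl had 201, Ebp 157, Dhcr7 151, Lss 124, Hsd17b7, a ketoreductase, 120.4, and Tm7sf2 and Lbr, both sterol C14 reductases, 112 and 60.6. Of the regulators, Srebf2 had 946, Insig1 618, Scap 367, Insig2 335, Srebf1 167 and Stard4, a cytosolic sterol carrier, 156. Some exonic sequence is shared with another gene, which makes such counts uncertain. The share with a gene on the same strand is 26.7% for Fdps and 12.1% for Tm7sf2. With a gene on the opposite strand it is 18.3% for Fdft1, 13.2% for Scap, 12.1% for Hmgcs1, 9.24% for Lbr and 9.22% for Idi1. For these the handling of strand matters, and it is not given.

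Genotype did not move any of the 26 genes past the threshold. With limma and an adjusted p under 0.05 over all tested genes, 0 of 26 were called, beside 0.731% of the 16824 genes, and 0 of 26 had an unadjusted p under 0.05 (6.6% of all genes). edgeR and DESeq2 on the reads also called 0 of 26. The median log2 fold change of HT vehicle over WT vehicle was -0.01 for the 26 genes (11 positive) and -0.00 for all tested genes (49.3% positive). Single genes ran from -0.09 for Fdps to 0.12 for Srebf1, and the 95% intervals of 25 of 26 lay within 0.3 of zero on the log2 scale; the widest reached 0.36, for Srebf1.

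Hmgcs1 normalized counts lay between 7962 and 9834 in WT vehicle (median 8354, n = 8) and between 6511 and 9004 in HT vehicle (median 8239, n = 7). The 2 groups overlapped, and the limma log2 fold change came to -0.07 (SE 0.07, adjusted p = 0.95). Fdps, which makes farnesyl diphosphate, lay between 1068 and 1346 in WT vehicle (median 1155) and between 838 and 1321 in HT vehicle (median 1151), with a log2 fold change of -0.09 (SE 0.07, adjusted p = 0.95). Its lowest value was in HT vehicle female 1. Srebf1, which encodes the SREBP1 that drives fatty acid genes, lay between 709 and 959 in WT vehicle (median 854) and between 814 and 1292 in HT vehicle (median 882). Its log2 fold change was 0.12 (SE 0.11, adjusted p = 0.95), and without HT vehicle female 1 and HT lithium male 4 it was 0.05. The 1292 came from HT vehicle female 1, and the other 6 HT vehicle libraries were at 995 or lower.

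Neither drug moved any of the 26 genes past the threshold. For fluoxetine against vehicle in HT, 0 of 26 were called (0.0357% of all genes) and 0 of 26 had an unadjusted p under 0.05 (2.63% of all genes). For lithium, 0 of 26 were called (0.0892%), and 0 of 26 had an unadjusted p under 0.05 (5.72%). The median log2 fold change was -0.03 for fluoxetine (6 of 26 positive) and -0.04 for lithium (9 positive), where all tested genes had -0.00 in each (48.7% and 47.8% positive). The 26 genes vary together, as described below, so the number with 1 sign is not 26 separate observations, and both comparisons share the HT vehicle libraries. Between the drugs, with fluoxetine minus lithium, 0 of 26 were called; 0 of 16824 genes were called by limma (0%), 0 by edgeR and 14 by DESeq2, and 1154 had an unadjusted p under 0.05 (6.86%). There 10 of 26 were positive, beside 50.6% of all genes.

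Nsdhl, which removes a C4 methyl group in sterol synthesis, gave the smallest p under fluoxetine. Its normalized counts lay between 481 and 679.8 in HT vehicle (median 583), between 519 and 590.1 in HT fluoxetine (median 545) and between 557 and 647 in WT vehicle (median 602). The HT fluoxetine values all fell inside the HT vehicle range, and the limma log2 fold change came to -0.11 (SE 0.06, adjusted p = 1). Acat2, the cytosolic acetoacetyl-CoA thiolase, lay between 1085 and 1321 in HT vehicle (median 1271) and between 1021 and 1274 in HT fluoxetine (median 1153). The log2 fold change was -0.09 (SE 0.06, adjusted p = 1). Hmgcs1 lay between 6809 and 9089 in HT fluoxetine (median 7380.3), with a log2 fold change of -0.09 over HT vehicle (SE 0.07, adjusted p = 1). Against WT vehicle the change of Hmgcs1 under fluoxetine was -0.17 (SE 0.07, adjusted p = 0.315), with 0 of 26 called beside 1.49% of all genes. Hmgcs1 and Nsdhl were the 2 of 26 with an unadjusted p under 0.05 there, beside 12.1% of all genes.

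Under lithium the smallest p belonged to Ggps1, which makes geranylgeranyl diphosphate for protein prenylation. It lay between 1082 and 1380.3 in HT vehicle (median 1273) and between 1221 and 1512 in HT lithium (median 1348), with a log2 fold change of 0.09 (SE 0.05, limma adjusted p = 0.88). Ebp, a sterol isomerase, lay between 356 and 400.2 in HT vehicle (median 365) and between 316 and 394 in HT lithium (median 343), with a log2 fold change of -0.10 (SE 0.06, adjusted p = 0.88). The groups of both genes overlapped. Dhcr7, which makes cholesterol from 7-dehydrocholesterol, lay between 727 and 1116 in HT vehicle (median 913) and between 751 and 968 in HT lithium (median 829). Its log2 fold change was -0.11 (SE 0.07, adjusted p = 0.88). Against WT vehicle, 0 of 26 were called (1.97% of all genes), with Lbr at 0.13 (SE 0.06, adjusted p = 0.25) as the 1 gene of 26 with an unadjusted p under 0.05 (17.7% of all genes).

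Idi1, which isomerizes isopentenyl diphosphate, was the 1 gene of 26 with an unadjusted p under 0.05 between the drugs. It lay between 1253 and 1505 in HT fluoxetine (median 1274) and between 1256 and 1642 in HT lithium (median 1425), with a log2 difference of -0.11 (SE 0.05, limma adjusted p = 0.70). Lss, which closes the sterol ring from squalene epoxide, lay between 1183 and 1429 in HT fluoxetine (median 1289) and between 1180.1 and 1450.3 in HT lithium (median 1404). The difference was -0.08 (SE 0.04, adjusted p = 0.74). Insig1, the sterol-sensing brake, lay between 1720.2 and 2056 in HT fluoxetine (median 1855) and between 1794 and 2091 in HT lithium (median 2007), a difference of -0.08 (SE 0.04, adjusted p = 0.75).

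Among the regulators, Srebf2 lay between 6356 and 7639.8 in WT vehicle, between 6289 and 7332 in HT vehicle, between 6356 and 7414 in HT fluoxetine and between 5558 and 7089 in HT lithium (medians 7099, 7067, 6786 and 6373). Insig2, the second INSIG, lay between 1069 and 1224 in WT vehicle, between 1075 and 1241 in HT vehicle, between 1079 and 1311 in HT fluoxetine and between 1155 and 1222 in HT lithium. All 4 conditions overlapped for both genes. Insig2 varied least of the 26 over all libraries, with a coefficient of variation of 4.80%, and Srebf1 most, at 18.1%. Sqle, squalene epoxidase, lay between 1518 and 1975 in WT vehicle, between 1373 and 1882 in HT vehicle, between 1427 and 1769 in HT fluoxetine and between 1354 and 1854 in HT lithium.

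**Figure D1:**
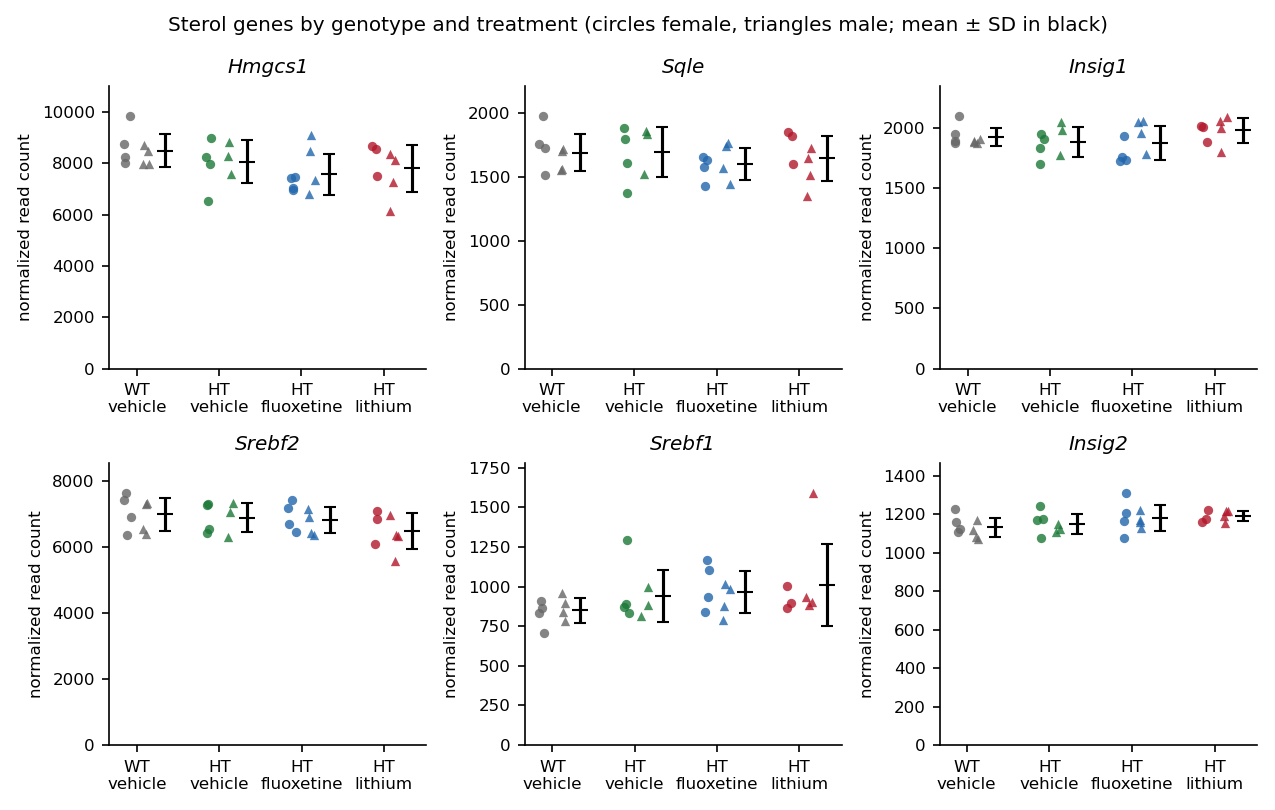
Normalized read count (y axis) of Hmgcs1, Sqle, Insig1, Srebf2, Srebf1 and Insig2 in each of 30 libraries by condition, circles female and triangles male, with the mean ± SD of each condition in black. The conditions overlap for all 6 genes, and the highest Srebf1 value, 1592, is HT lithium male 4.

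**Figure D2:**
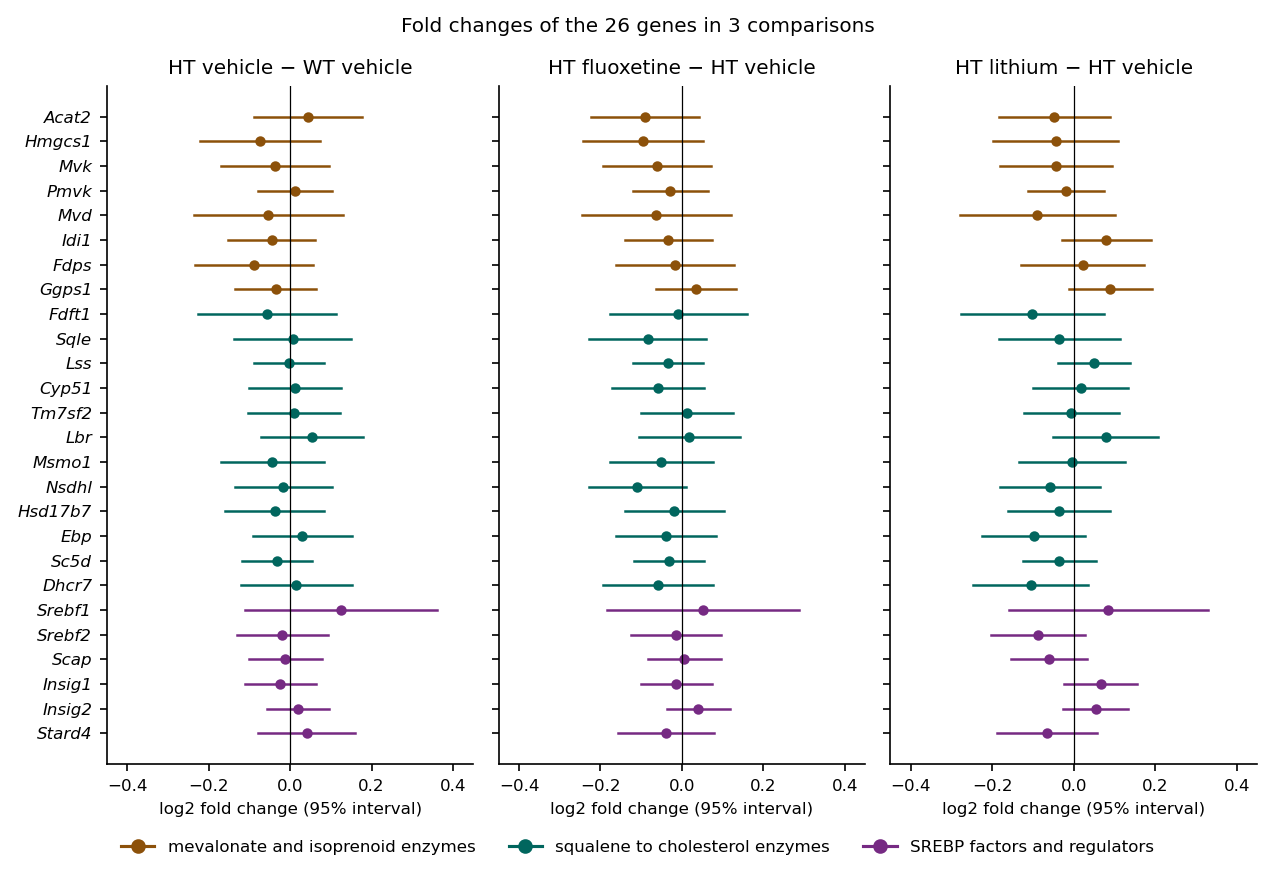
Log2 fold change (x axis) with its 95% interval for each of the 26 genes in 3 comparisons, coloured by role. Zero lies inside every interval, and the widest interval is that of Srebf1.

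Sex made no call either: 0 of 26 differed between females and males (0.214% of all genes), and 0 of 26 had an unadjusted p under 0.05 (8.05%). Whether genotype, fluoxetine or lithium acted differently by sex was tested as an interaction, with 0 of 26 called in each (0% of all genes), by edgeR and DESeq2 too. At an unadjusted p under 0.05 there were 0 of 26 for genotype (2.05% of all genes), 0 for fluoxetine (5.96%) and 3 for lithium (10%): Dhcr7, Fdps and Fdft1. The 3 of 26 for lithium are near the share of all genes, so they are not a result about these genes. In males Dhcr7 was at 769, 829, 819 and 751 in HT lithium and at 979, 865 and 1116 in HT vehicle. In females Dhcr7 was at 878, 968 and 829 in HT lithium and at 729, 913, 727 and 986 in HT vehicle. The log2 fold change was -0.31 in males (SE 0.10, limma adjusted p = 0.29) and 0.10 in females (SE 0.10, adjusted p = 1), and the difference of 0.41 between the sexes (SE 0.14, 95% interval 0.13 to 0.69) had an adjusted p of 0.47. Fdps was at 971, 1122, 1134 and 891 in HT lithium males and at 1151, 1059.7 and 1321 in HT vehicle males, and in females at 1308, 1194 and 1136 on lithium and at 838, 1167, 980.1 and 1155 on vehicle; the groups overlapped in both sexes. Fdps and Fdft1 differed between the sexes by 0.43 (SE 0.15, adjusted p = 0.47) and 0.35 (SE 0.17, adjusted p = 0.49). Left without HT vehicle female 1 and HT lithium male 4, the differences of Dhcr7, Fdps and Fdft1 were 0.32, 0.27 and 0.17.

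Over the libraries themselves, most of the 26 genes rose and fell together. Group means were removed from log2(normalized count + 1), and Pearson's r was taken over 30 libraries for each of the 325 pairs. The median r was 0.44, 239 pairs were positive and 140 (43.1%) had an r over 0.5. Among all pairs of the 16824 tested genes 6.47% had an r over 0.5, and among pairs of the 10191 genes at or above the mean of the lowest of the 26 it was 9.90%. By permutation of the libraries within groups (100000 permutations, 2-sided, Benjamini-Hochberg over 325 pairs), 150 pairs were positive and 23 negative at an adjusted p under 0.05; Spearman's rho gave 147 and 21. All genes of a library share its scaling and its tissue, so this is a description of these libraries. The permutation test was run only on pairs of the 26 genes, so the share of called pairs among all genes is not known.

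The tightest pair was Sqle with Fdft1, the enzymes on either side of squalene: r was 0.935 and rho 0.934, and without the 2 libraries farthest from the median of Sqle r was 0.912. Fdps with Fdft1 had an r of 0.909 (0.875 without the farthest 2), Fdft1 with Acat2 0.908 (0.922), Fdft1 with Scap 0.893 (0.865) and Sqle with Fdps 0.889 (0.847). The permutation p of each of these 5 pairs, for r, was 1e-05, the smallest that 100000 permutations can give, with an adjusted p of 0.000181. Within the mevalonate steps the median r of 28 pairs was 0.571, and from squalene on that of 66 pairs was 0.364. Without HT vehicle female 1 and HT lithium male 4 these medians were closer, at 0.405 and 0.303. The 15 pairs among the 6 regulators were mixed, with 7 positive; their median was -0.272, and 0.179 without HT vehicle female 1 and HT lithium male 4. Srebf2 with Scap had an r of 0.877 and Mvd with Insig1 0.836, 2 pairs chosen after their values were seen. Srebf2 and Insig1 each had 17 positive and 1 negative called pair among 25.

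4 genes ran the other way. The median r with the other 25 genes was -0.31 for Ggps1, -0.31 for Lbr, -0.37 for Insig2 and -0.38 for Srebf1, and 0.24 or higher for the other 22, up to 0.734 for Sqle. Without HT vehicle female 1 and HT lithium male 4 the same medians were -0.38 for Ggps1, -0.25 for Lbr, -0.21 for Insig2 and -0.03 for Srebf1, and Hsd17b7, at 0.279 over all libraries, was at 0.049. None of the 4 had a positive called pair, and Ggps1 had 8 negative ones, Insig2 7, Srebf1 6 and Lbr 2. Negative pairs were about as common as among all genes: 21 of the 325 pairs had an r under -0.5. It was 8722877 of 141515076 pairs of tested genes, and 4425857 of 51923145 pairs of genes at or above the lowest mean. Ggps1 leaves the sterol branch for protein prenylation, and Lbr shares its reaction with Tm7sf2. The most negative pair was Msmo1, a sterol C4 methyl oxidase, with Srebf1, at an r of -0.751 (rho -0.529, adjusted p = 0.0109), and without the 2 libraries farthest from the median of Msmo1 it was -0.500. Of the paralogs, Srebf1 with Srebf2 had an r of -0.272 (adjusted p = 0.29) and Insig1 with Insig2 -0.320 (adjusted p = 0.17), neither called.

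**Figure D3:**
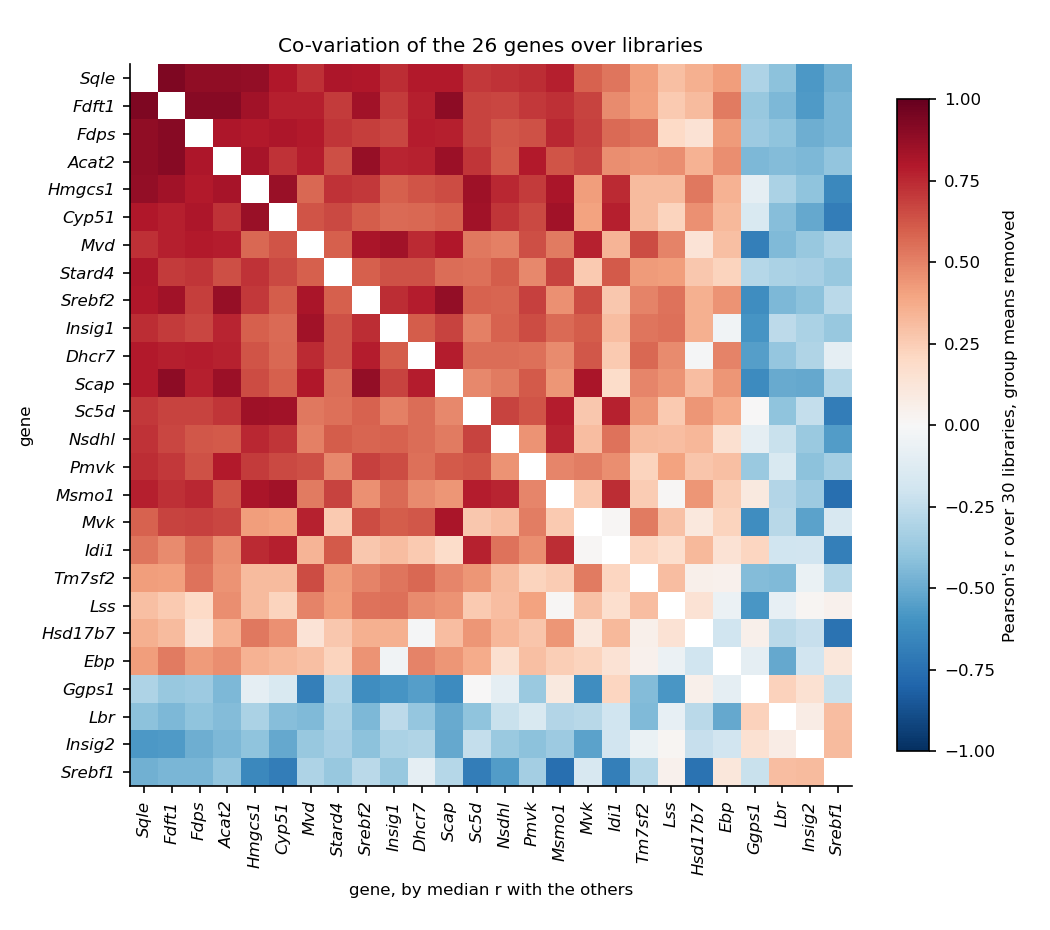
Pearson's r over 30 libraries for each pair of the 26 genes, group means removed, with genes ordered by their median r with the others. Ggps1, Lbr, Insig2 and Srebf1, at the end of both axes, are mostly blue (negative), and the rest form a mostly red (positive) block led by Sqle and Fdft1.

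**Figure D4:**
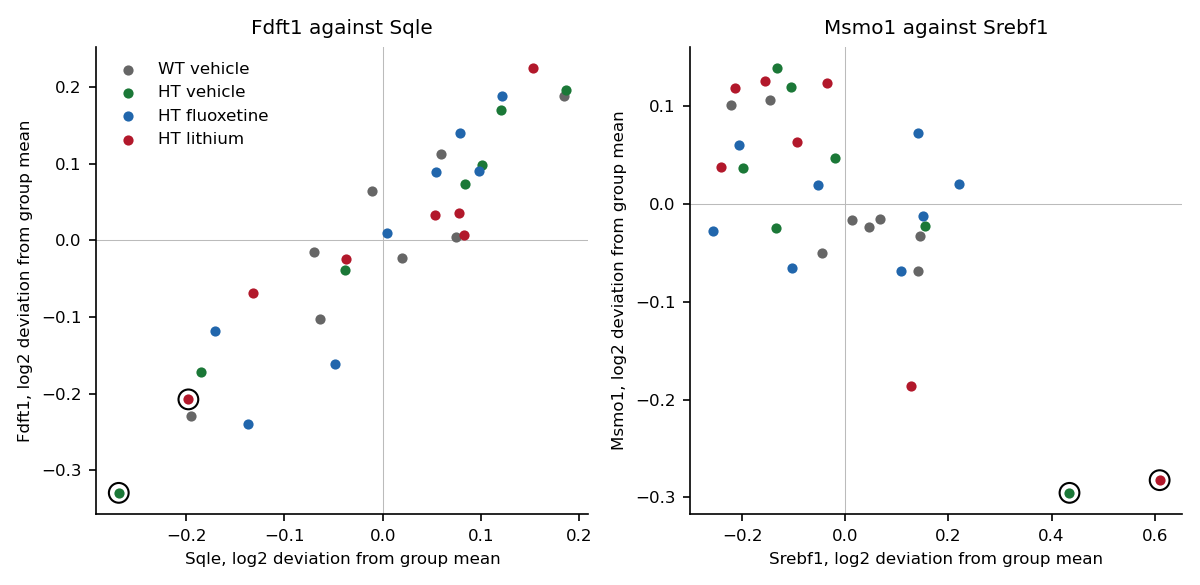
Deviation from the group mean, in log2 units, of Fdft1 against Sqle and of Msmo1 against Srebf1, 1 point per library coloured by condition, with HT lithium male 4 and HT vehicle female 1 circled. The points of Sqle and Fdft1 lie along a line over the whole range (r 0.935), whereas the circled libraries lie at the far end of the negative relation of Srebf1 and Msmo1.

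The co-variation was weaker without 2 libraries. Each enzyme was set against its own median over 30 libraries, and the median over 20 enzymes was 86.4% in HT lithium male 4 and 86.8% in HT vehicle female 1, the lowest of all, and 110% in WT vehicle female 3, the highest. In HT lithium male 4, 16 of the 20 enzymes were among the 3 lowest libraries, and in HT vehicle female 1 it was 11. The share of all genes that were among the 3 lowest there was not counted. The normalized counts of these 2 libraries, summed over all genes, were also the lowest of 30, at 26796660 and 27823572. In HT lithium male 4 the 8 cortical excitatory neuron markers were lowest too, summing to 44206 (median 60997). Its 13 fatty acid genes driven by SREBP summed to 75916 (median 71185). Srebf1 was highest in these 2 libraries, at 1592 and 1292. Without these 2 libraries the median r fell from 0.44 to 0.319 and 112 pairs (34.5%) had an r over 0.5, against 5.66% of pairs of all tested genes and 8.43% of pairs at or above the lowest mean. Called pairs then numbered 108 positive and 10 negative. As the 2 libraries left out are the lowest in the enzymes, leaving them out narrows the range of these genes and can by itself lower r.

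Olfactory bulb and neuroblast markers ran against the enzymes over the libraries. Their summed normalized count lay between 2147 and 10055 in WT vehicle, 2388 and 17569 in HT vehicle, 2096 and 10104 in HT fluoxetine and 2735 and 18824 in HT lithium, and none of the 8 was at 0 in any library. All 8 had a negative median r with the 20 enzymes (median -0.546, and -0.482 without the 2 libraries). All 10 meningeal and vascular markers were negative too (median -0.447), and HT lithium male 4 had their highest sum, 16015. All 12 mature oligodendrocyte markers were positive (median 0.348, and 0.457 without the 2 libraries), as were all 8 striatal markers (median 0.367, and 0.398 without the 2 libraries). So were all 8 oligodendrocyte precursor markers (median 0.280, and 0.412 without the 2 libraries). The summed striatal count lay between 4621 and 21312 in WT vehicle, 4748 and 22880.0 in HT vehicle, 4671 and 36949 in HT fluoxetine and 4596 and 13672 in HT lithium. The 10 astrocyte markers had a median of -0.223. Of 8 cortical excitatory neuron markers 6 were positive (median 0.352, and 0.05 without the 2 libraries), and of 8 microglia markers 2 were (median -0.197). Markers of 1 list need not be separate observations, and the share of all genes with such a median r was not counted. The part of these markers in the co-variation was not tested.

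**Figure D5:**
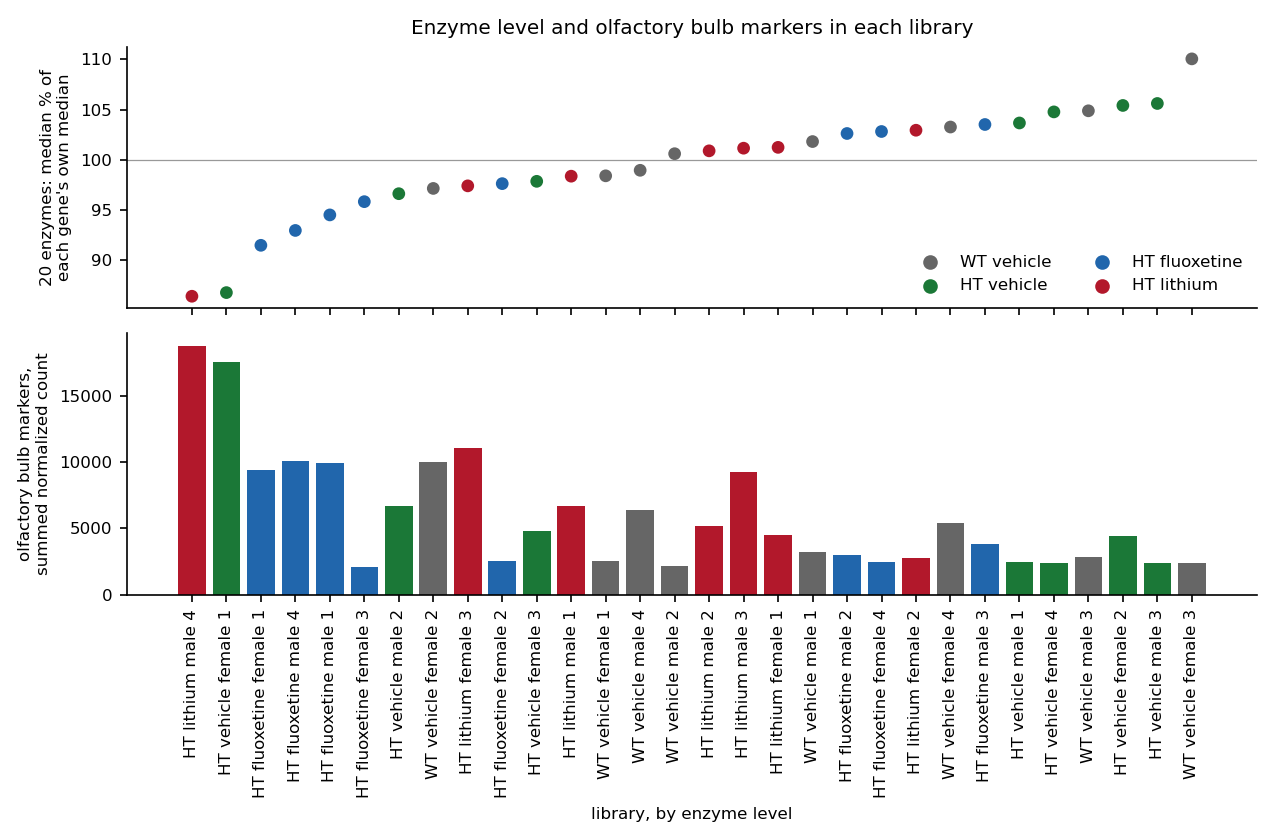
Median of 20 enzymes as a percentage of each gene's own median (top, y axis) and summed normalized count of 8 olfactory bulb and neuroblast markers (bottom, y axis) in each library, ordered by the enzymes and coloured by condition. The 2 libraries of lowest enzyme level, at 86.4% and 86.8%, have the 2 highest marker sums.

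The neighbouring pathways gave no call in the same comparisons. In genotype, fluoxetine, lithium and fluoxetine against lithium, 0 of 13 fatty acid genes driven by SREBP were called, 0 of 9 liver X receptor and export genes, 0 of 11 genes of sterol uptake, transport and storage, 0 of 7 genes of SREBP proteolysis and sterol-regulated degradation and 0 of 10 isoprenoid users, beside 0.731%, 0.0357%, 0.0892% and 0% of all genes. The smallest p of the fatty acid genes for genotype was that of Me1, malic enzyme, at -0.12 (SE 0.05, limma adjusted p = 0.53), and for lithium that of Aacs, at -0.16 (SE 0.08, adjusted p = 0.87). Stard3, a late endosomal sterol carrier, was at -0.10 for lithium (SE 0.04, adjusted p = 0.86) and Lrp1, a lipoprotein receptor, at -0.16 (SE 0.07, adjusted p = 0.87). Over the libraries the 13 fatty acid genes had a median r of -0.05 with the 20 enzymes, which turned to 0.219 without HT vehicle female 1 and HT lithium male 4. The lowest was Elovl5, at -0.491 (-0.211 without both), and the highest Aacs, at 0.573 (0.385). Cyp46a1, which turns cholesterol into a form that leaves neurons, had 0.545 (0.325), and Abca1, a cholesterol exporter, -0.613 (-0.467). Oligodendrocyte precursor markers had 2 of 8 called for genotype, beside 0.731% of all genes: Pdgfra at -0.18 (adjusted p = 0.0303) and Neu4 at -0.21 (adjusted p = 0.0466), while 0 of 12 mature oligodendrocyte markers were called.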

How the data were processed

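The authors deposited 1 table of normalized gene counts, a signal per gene and library. Build GRCm38 and the tools DESeq2 1.19.11, R 3.6.0 and Salmon 0.11.2 are named, per the submitters' processing notes; the handling of strand is not given in the sources used here. 100% of the deposited values came out as whole multiples of 1 step per library within 0.01, and the reads recovered in this way went into edgeR 4.0.16 (quasi-likelihood) and DESeq2 1.42.0 as alternatives. Symbols and exonic lengths are from GENCODE M21 (GRCm38).

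The main test was limma 3.58.1 in R 4.3.3 (trend, robust) on log2(normalized count + 1), over genes with a mean of at least 10, with 1 mean per group in 1 fit of 30 libraries and Benjamini-Hochberg adjustment over 16824 genes; contrasts average both sexes. Fold changes on this scale understate the change of low genes. Scripts were tested on simulated data. The members and lists were chosen with earlier results of these data known. Values are given for Hmgcs1, Sqle, Insig1, Insig2, Srebf1 and Srebf2 and for the 3 smallest p in each of genotype, fluoxetine, lithium and fluoxetine against lithium. Of the other lists, called genes or some of the genes of smallest p are named; the genes singled out by their r with the enzymes, and the negative pairs, were chosen after their values were seen.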

Additional observations from a re-analysis of the deposited data

Results flagged for a closer look

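In 7 of 156 groups of 4 libraries, 1 library of a gene stood far from the other 3 by Dixon's test at the 95% level; chance gives about 5% of groups. Srebf1 was far above its group in HT lithium male 4, at 1592 against 936 for the next library, and in HT vehicle female 1, at 1292 against 888. The same 2 libraries held the lowest Sc5d and Idi1 of their groups: Sc5d was 2011 in HT lithium male 4, against 2325 for the next, and Idi1 was 1168 in HT vehicle female 1, against 1367. Idi1 was also high in HT fluoxetine female 2, at 1302 against 1274, a small gap in a group that spanned 1272 to 1302. Msmo1 was 1868 in WT vehicle male 2, against 1708, and Insig1 was 1933 in HT fluoxetine female 4, against 1754.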

How the results depend on the processing

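Under pseudocounts of 0.5 and 5, no filter, a filter at a mean of 50, TMM rescaling, edgeR, DESeq2, only the groups compared, leaving out each library and leaving out HT lithium male 4 with HT vehicle female 1, 0 of 26 genes were called in each of the 10 comparisons; only the groups compared was not run for sex, which uses all groups. The smallest adjusted p over these settings was 0.753 for genotype, 0.998 for fluoxetine and 0.495 for lithium, and 0.118 for lithium against WT. With the replicate number as a block, 0 of 26 were also called; correlations of same-numbered libraries were mixed, from -0.345 to 0.278 for genotype, -0.430 to 0.446 for fluoxetine, -0.204 to 0.0839 for lithium and -0.0824 to 0.309 between the drugs, and over 0.1 in 4 of 7, 3 of 7, 0 of 6 and 3 of 7 pairs, so the numbers are not read as pairs. Called pairs numbered 171 with TMM rescaling, 118 without both libraries and 140 to 187 when 1 library was left out, against 173. Negative pairs, 23 in all, numbered 14 without HT vehicle female 1 and 35 without HT fluoxetine female 4.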
